A study of Saccharomyces cerevisiae with 3 samples.

Results

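The 38 genes described here build and run the vesicle traffic of the secretory route in Saccharomyces cerevisiae, budding yeast: the COPII and COPI coats, the cargo receptors of the endoplasmic reticulum (ER), Arf and Rab GTPases, and the SNAREs with their recycling factors. They were chosen by name and matched by locus tag to the 6174 genes of the expression table. A row was found for 37 of them, and no row carried the locus tag of ERP1. The cells were a derivative of strain BY4741 labelled WSC1extMID2cyt, grown in rich medium (YEPD) at 24 °C. One part of each split culture received 15 ng/ml caspofungin for 2 hours, and the other part was left untreated. Both parts carry the WSC1extMID2cyt genotype, so nothing here compares that genotype with BY4741. Caspofungin is an echinocandin, a drug that blocks synthesis of the wall polymer beta-1,3-glucan. Each 2-colour DNA microarray held RNA of both parts, and 3 arrays were analysed. The treated part was labelled with Cy3 on array 1, whereas Cy5 marked it on arrays 2 and 4.

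Newly made wall and membrane proteins leave the ER in vesicles coated with COPII, pass through the Golgi, and reach the plasma membrane in secretory vesicles. COPI coats carry escaped ER proteins and cycling receptors back. The small GTPases Sar1 and Arf1 start coat assembly, Rab GTPases such as Ypt1 and Sec4 help vesicles tether, and SNAREs on vesicle and target membrane pair to fuse them. Many wall mannoproteins, and the glucan synthase that caspofungin inhibits, travel this way.

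All values are log2 ratios as deposited, 1 per gene and array, with base 2 assumed. Which channel is on top is not given in the sources used here, so values are placed on the positive or the negative side, and every side named would be exchanged if the sign were turned. Array 1 gave values for 2520 genes, array 2 for 1924 and array 4 for 741. On the 585 genes with all 3 values, arrays 1 and 2 correlated with r = 0.50 (Pearson, over genes, which are not independent), arrays 2 and 4 with r = 0.53, and arrays 1 and 4 with r = 0.05. Arrays 2 and 4 share their dye orientation. Among genes with at least 2 values, the array medians lay at -0.16, -0.22 and 0.09 on arrays 1, 2 and 4. A value of 0 therefore lies above the middle of arrays 1 and 2, and the sign of small ratios depends on centring. Of 14 listed genes that wall stress is known to raise through the cell wall integrity pathway, 12 had at least 2 values and all 12 were positive on every array measured, with a median mean ratio of 1.11. This side was known from earlier results and does not settle the direction.

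The secretory route members were measured more often than most genes. At least 2 arrays gave a value for 29 of the 38 (76.3%), against 30.8% of all genes. All 3 arrays gave one for 8 members (21.1%), against 9.48% of all genes. The other 21 measured members had values on arrays 1 and 2 alone. No value on any array was found for 9 members: the COPII scaffold gene SEC16, the Sec24 homologue SFB2, the cargo receptor genes ERV14, ERP1 and ERP2, the COPI gamma subunit gene SEC21, the Rab gene SEC4, and the SNARE genes BET1 and SNC1. Why these spots lack values is not stated, and their transcripts may have been at any level.

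The measured members stayed close to 0 and were divided in side. Of the 29, 14 were negative and 4 positive on every array that measured them, and 11 had both signs. Over all 1899 genes with at least 2 values these shares were 45.9% negative, 18.5% positive and 35.6% with both signs. The members' shares of 48.3%, 13.8% and 37.9% lay near these. After each array was centred on its median, 9 members were negative and 7 positive on every array, where 30.4% of all genes were negative and 28.8% positive. Their mean ratios had a median of -0.13, against -0.19 for all genes. The standard deviation of the mean ratios was 0.31 over the members and 0.56 over all genes. All values of 21 members (72.4%) lay within 1.5-fold of 0, a limit of 0.585 on the log2 scale, against 50.7% of all genes. The other secretory route genes with at least 2 values, listed at the end, had a similar share of 65.5% within 1.5-fold. Their standard deviation of 0.30 includes the extreme mean of the SNARE gene SYN8 (-1.37) and was not computed without it. A ratio of at least 2-fold was reached on any array by 2 members, SED5 on array 2 and ERV46 on array 4, and on every array by none of the 29. The 2-fold counts were not made over all genes, so they have no background share.

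**Figure D1:**
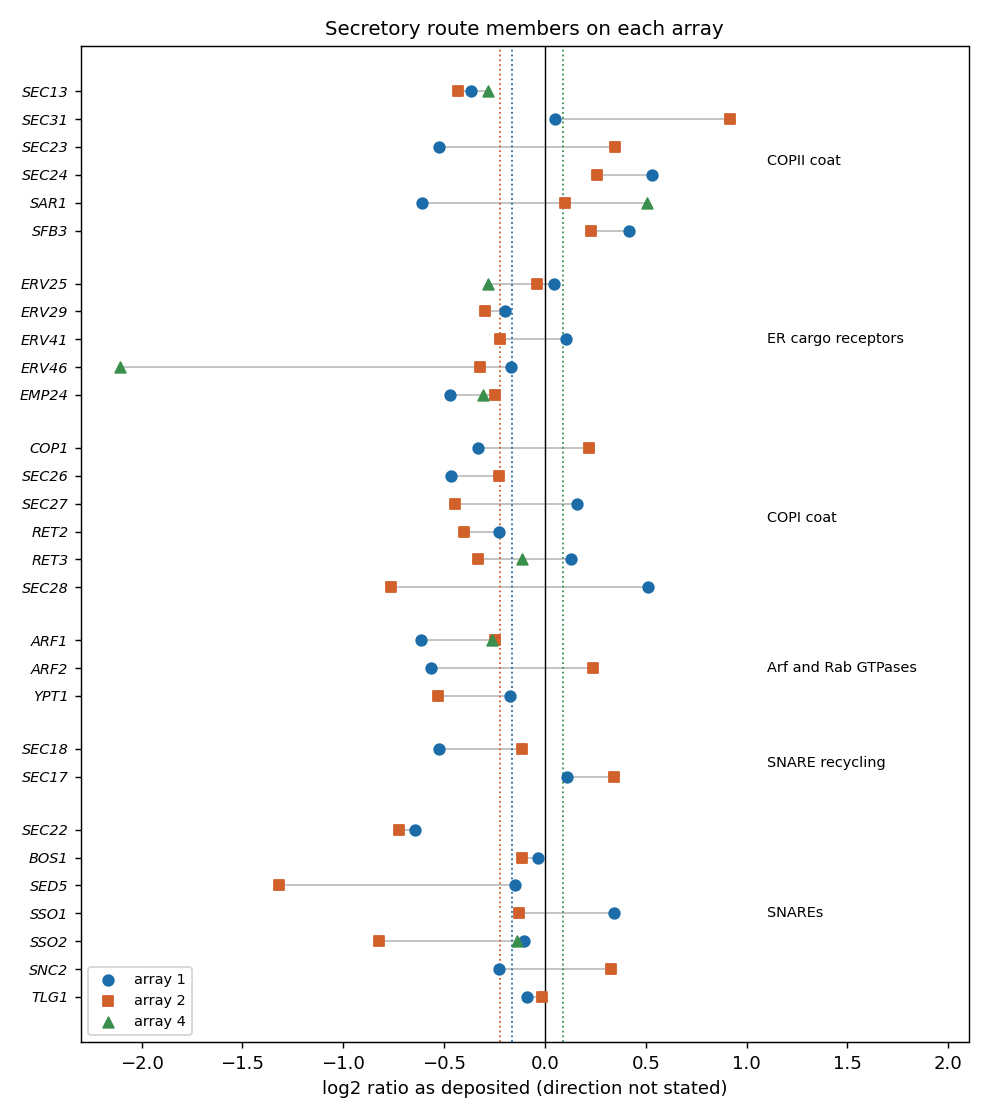
Log2 ratio (x axis) of each of the 29 measured members (rows, by family) on array 1 (circles), array 2 (squares) and array 4 (triangles); a grey line joins the arrays of one gene, and dotted lines mark each array's median over genes with at least 2 values. Most points lie between -0.8 and 0.6, and 11 members have points on both sides of 0.

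Members did not keep their order between arrays. Pearson's r between arrays 1 and 2 was 0.04 across the 29 members, against 0.58 across all 1863 genes on both arrays. Across 29 other secretory route genes it was -0.45, with opposite signs in 13 of them. Among these, the SNARE gene SYN8 had both the highest value on array 1 (0.95) and the lowest on array 2 (-2.59). The r of -0.45 includes this extreme gene and was not computed without it. The points share 2 hybridisations, which may come from 1 culture, and the members span a narrower range than all genes. SEC28, the COPI epsilon subunit gene, was at the 91.3rd percentile of array 1 (0.51) and at the 16.4th of array 2 (-0.76). SEC23, of the inner COPII coat, had the opposite pattern, at the 19.4th percentile of array 1 (-0.53) and the 85.4th of array 2 (0.35). Signs differed between arrays 1 and 2 in 11 of the 29 members, and in 512 of all 1863 genes on both arrays.

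**Figure D2:**
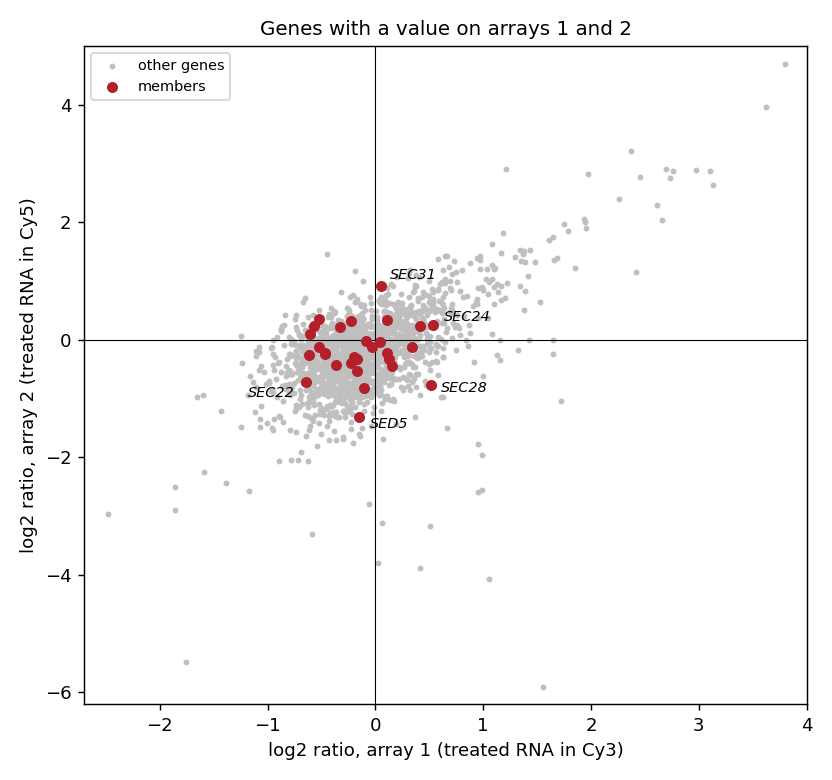
Log2 ratio on array 1 (x axis) against array 2 (y axis) for the 29 members (red) and the other genes with both values (grey). The grey cloud rises along the diagonal (r = 0.58 over all genes), while the members sit in its centre without a slope (r = 0.04).

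No member passed the test. Each gene's ratio was tested against 0 with limma over the 585 genes on all arrays, with array 1 averaged with array 2 and then with array 4, since the labels do not say which of them shares its culture. The larger of both p-values entered the Benjamini-Hochberg adjustment. The test called 0 of 8 members, with a background of 0.0% of the 585 genes. At an unadjusted p under 0.05 there was 1 member, ERV46, against 11.5% of genes. With arrays as separate replicates and genes on at least 2 arrays, 0 of 29 members passed against 2.53% of genes, and 2 (SEC22 and ERV46) had an unadjusted p under 0.05, against 23.9% of genes. An exact sign-flip permutation test that counts the 3 arrays as independent could not go below p = 0.25. With only 2 cultures its lowest possible p would be higher. Of the 8 members on all arrays, 5 were negative on each (background 29.1%) and 0 were positive on each (background 18.1%). Their median mean ratio was -0.35, against -0.07 for all 585 genes, and the medians on the single arrays were -0.27, -0.29 and -0.27. Among all genes these array medians were -0.14, -0.14 and 0.09. This set of 8 is the part of the list that array 4 measured. Over all 29 members the median was -0.13, above that of all genes.

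**Figure D3:**
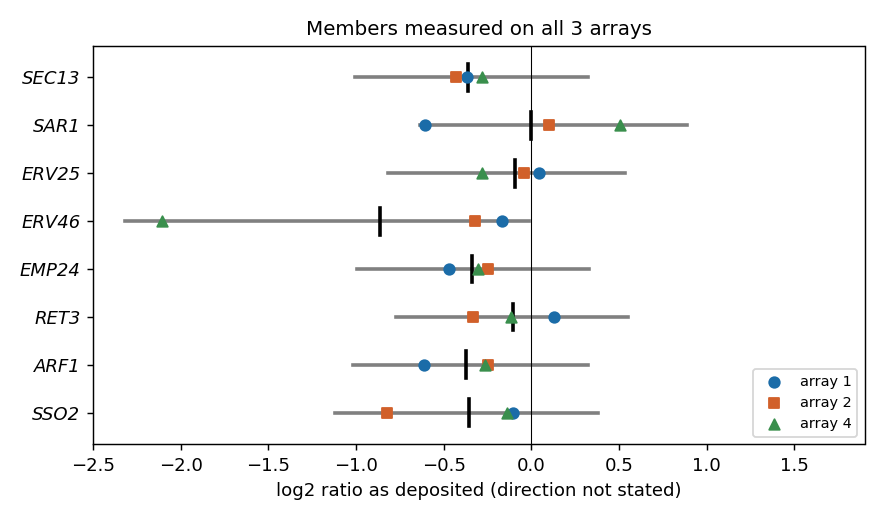
Log2 ratio (x axis) of the 8 members on all arrays (rows): circles, squares and triangles are arrays 1, 2 and 4, the black tick is their mean, and the grey bar runs from the lower to the higher 95% limit of limma's 2 culture pairings. Every bar but that of ERV46 crosses 0, and the ERV46 bar ends at -0.01.

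The COPII coat, which buds vesicles from the ER, held the members with the highest mean ratios. Of its 8 genes, 6 were measured, with 3 positive and 1 negative on every array and 2 with both signs. SEC31, whose product forms the outer cage together with Sec13, had 0.05 on array 1 and 0.92 on array 2, a mean of 0.48 ± 0.61 (SD, n = 2 arrays). SEC13 (YLR208W) had -0.36, -0.43 and -0.28 on arrays 1, 2 and 4, a mean of -0.36 ± 0.07 (SD, n = 3 arrays, limma adjusted p = 0.64, interval -1.01 to 0.32). The genes of the 2 cage subunits thus lay on opposite sides on both shared arrays, a difference that was not tested. Sec13 is also part of the nuclear pore, which the cage partner Sec31 is not.

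The inner coat binds cargo through Sec24 and its homologues. SEC24 had 0.53 and 0.26 on arrays 1 and 2, a mean of 0.40 ± 0.19, and the homologue SFB3 had 0.42 and 0.23, a mean of 0.32 ± 0.13 (SD, n = 2 arrays each). These paralogues differed by 0.12 on array 1 and 0.03 on array 2, and both stayed positive after centring. Neither passed in the fit over at least 2 arrays (limma adjusted p = 0.33 for SEC24 and 0.40 for SFB3). SEC23, the partner that activates the Sar1 GTPase, averaged -0.09 ± 0.62 with 1 array on either side. SAR1, the GTPase gene that starts COPII assembly, had -0.61, 0.10 and 0.51 on arrays 1, 2 and 4. Its arrays covered both sides, its interval ran from -0.64 to 0.89, and the side of its mean depended on how the arrays were weighted. On array 2, 5 of the 6 measured COPII genes were positive, and on array 1, 3 of the 6 were. Among all genes with at least 2 values, 1261 of 1868 were negative on array 2 and 1238 of 1894 on array 1.

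Cargo receptors load secretory proteins into COPII vesicles and return with COPI. Of 8, 5 were measured, with 3 negative and 0 positive on every array, and the same 3 were negative after centring. ERV46, which with Erv41 retrieves ER proteins that have escaped, had -0.17, -0.32 and -2.10 on arrays 1, 2 and 4. Its mean of -0.87 ± 1.08 (SD, n = 3 arrays, limma adjusted p = 0.41) was the lowest of the members and rested on array 4. Without that array it was -0.25. On array 4, 44 genes (5.94% of those with a value) lay at -2 or lower. Of these, 14 had values on both other arrays, and 6 of the 14, ERV46 included, lay above -1 on both. ERV41, the gene of its partner, had 0.10 and -0.22 on arrays 1 and 2.

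The p24 proteins Emp24 and Erv25 work in one complex that selects lipid-anchored cargo. EMP24 (YGL200C) had -0.47, -0.25 and -0.31 on arrays 1, 2 and 4, a mean of -0.34 ± 0.12 (SD, n = 3 arrays, limma adjusted p = 0.64). ERV25 (YML012W) had 0.04, -0.04 and -0.28, a mean of -0.09 ± 0.17 (SD, n = 3 arrays, limma adjusted p = 0.91). EMP24 was negative on every array and ERV25 lay near 0 on arrays 1 and 2, and on array 4 both were at about the same ratio. ERV29, the receptor gene for soluble cargo such as the alpha-factor precursor, had -0.20 and -0.30.

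The COPI coat returns material from the Golgi to the ER. Of its 7 genes, 6 were measured, with 2 negative on every array, 0 positive and 4 with both signs. The beta subunit gene SEC26 had -0.47 and -0.23 on arrays 1 and 2, and the delta subunit gene RET2 had -0.23 and -0.40. Their means of -0.35 ± 0.17 and -0.31 ± 0.12 (SD, n = 2 arrays each) stayed negative after centring. RET3, the zeta subunit gene and the COPI member on all arrays, had 0.13, -0.33 and -0.11, a mean of -0.11 ± 0.23 (SD, n = 3 arrays, limma adjusted p = 0.95). COP1, the alpha subunit gene, averaged -0.06 ± 0.39, SEC27, of the beta-prime subunit, -0.14 ± 0.43, and SEC28 -0.13 ± 0.90 (SD, n = 2 arrays each). The mean ratios of the 6 subunit genes spanned -0.35 to -0.06, while the arrays of one gene differed by up to 1.28. On array 2, 5 of the 6 were negative, and on array 1, 3 of the 6 were. Of all genes with at least 2 values, 1261 of 1868 were negative on array 2 and 1238 of 1894 on array 1.

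Arf GTPases recruit COPI. ARF1 (YDL192W) had -0.61, -0.25 and -0.26 on arrays 1, 2 and 4, a mean of -0.37 ± 0.21 (SD, n = 3 arrays, limma adjusted p = 0.64, interval -1.01 to 0.32). Its near-identical paralogue ARF2 had -0.57 on array 1 and 0.24 on array 2. The pair differed by 0.05 on array 1 and by 0.49 on array 2, with ARF1 lower on both. Probe sequences were not used here, so signal shared between such paralogues cannot be told apart. YPT1, the Rab gene for ER to Golgi transport, had -0.17 and -0.53, a mean of -0.35 ± 0.25 (SD, n = 2 arrays).

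Sec18 and Sec17 take SNARE complexes apart after fusion so that they can be used again. SEC17 had 0.11 and 0.34 on arrays 1 and 2, a mean of 0.23 ± 0.17, and was positive on both. SEC18 had -0.53 and -0.12, a mean of -0.32 ± 0.29 (SD, n = 2 arrays each), and was negative on both, though after centring its 2 signs differed. The genes of these partners lay on opposite sides as deposited, and the difference was not tested.

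Among the members, the lowest value on array 1 was that of SEC22 and the lowest on array 2 that of SED5. Both are SNARE genes of the route from ER to Golgi. On array 1, ARF1 and SAR1 (both -0.61) lay close to SEC22. SEC22, whose product acts on vesicles in both directions between ER and Golgi, had -0.65 and -0.73, a mean of -0.69 ± 0.06 (SD, n = 2 arrays). It lay at the 10.4th percentile of array 1 and the 18.1th of array 2. SEC22 was the 1 member at least 1.5-fold from 0 on the negative side of every array measured (background 4.9%), and 0 members were so on the positive side (background 4.16%). Its adjusted p was 0.16 in the limma fit that counts arrays separately, the lowest of the 29 members. That p is too small if both arrays came from 1 culture. SED5, the Golgi syntaxin gene, had -0.15 on array 1 and -1.32 on array 2, so its mean of -0.73 ± 0.83 came from array 2. BOS1, which pairs with Sed5 and Sec22, had -0.03 and -0.12, above the median of both arrays.

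The plasma membrane syntaxins are encoded by the paralogues SSO1 and SSO2. SSO2 (YMR183C) had -0.10, -0.82 and -0.14 on arrays 1, 2 and 4, a mean of -0.35 ± 0.41 (SD, n = 3 arrays, limma adjusted p = 0.67). SSO1 had 0.34 and -0.13 on arrays 1 and 2, higher than SSO2 by 0.45 and 0.69. Both paralogues were lower on array 2 than on array 1. SNC2, the SNARE gene of secretory vesicles, had -0.23 and 0.33, and its paralogue SNC1 had no value. TLG1, which acts in recycling from endosomes to the Golgi, had -0.09 and -0.02. Of the 7 measured SNARE genes, 5 were negative and 0 positive on every array, but after centring 1 was negative (SEC22) and 3 were positive (BOS1, SSO1 and TLG1).

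Of 110 other secretory route genes (coat regulators, further cargo receptors, tethers, other SNAREs and Rabs, clathrin adaptors and retromer), 29 had values on at least 2 arrays (26.4%). Of these, 15 were negative and 0 positive on every array, and after centring 9 were negative (31.0%) and 2 positive (6.9%). Over all 1899 genes with at least 2 values, 18.5% were positive, and after centring 30.4% were negative and 28.8% positive. The median mean ratio of the 29 was -0.23, against -0.19 for all genes. All 4 measured genes of the further cargo receptor list (ERP4, ERP5, SVP26 and TED1) were negative on both arrays, with a median of -0.42, and after centring 3 of the 4 were. All 4 measured genes of the list of other Rabs and their regulators (YPT6, YPT31, YPT7 and YPT52) were negative on every array too, with a median of -0.38, and after centring 1 of the 4, YPT7, was. The share of all genes negative on every array was 45.9%. The lowest mean among genes of 1 sign was -0.56 ± 0.03 for GCS1, an Arf GTPase-activating protein gene, followed by -0.52 ± 0.49 for GGA2, which encodes a clathrin adaptor (SD, n = 2 arrays each). Their adjusted p in the limma fit over at least 2 arrays was 0.20 and 0.27.

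**Figure D4:**
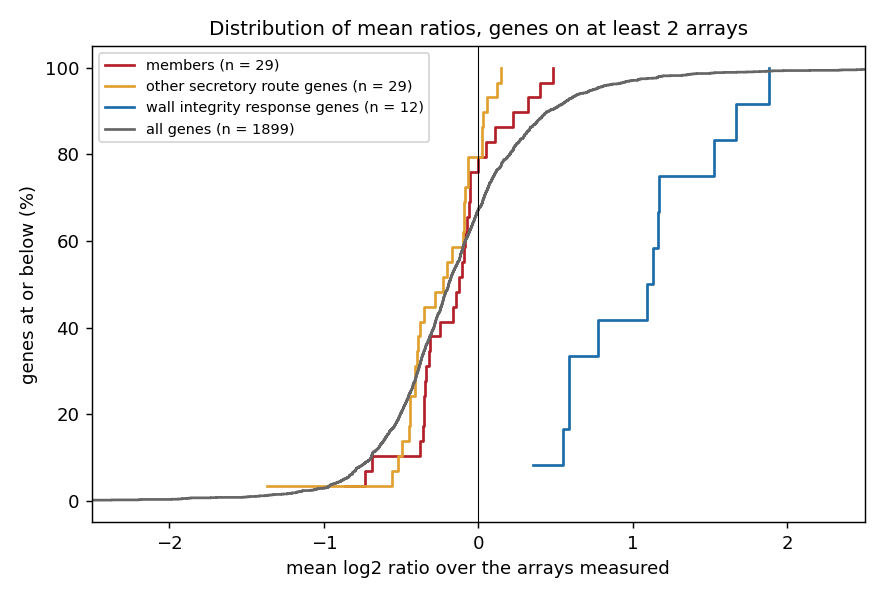
Share of genes (y axis, %) at or below a mean log2 ratio (x axis) for the 29 members, 29 other secretory route genes, 12 wall integrity response genes and all 1899 genes with at least 2 values. The members' curve is steeper than that of all genes and crosses the middle at -0.13, while the wall integrity curve lies wholly above 0.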

How the data were processed

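The authors deposited 1 table of log2 ratios per spot and array, with base 2 assumed. For the scanner, normalization, spot filter, centring and direction, the sources used here give nothing. Signal intensities were not used, so the number of arrays limits the precision. Of 6209 rows, 5654 were matched by locus tag and 57 by synonym to RefSeq's R64 gene table, and rows of one gene were averaged. Per the labels, 2 cultures were hybridised with swapped dyes on 4 arrays, of which 3 are analysed here. Array 1 then shares its culture with array 2 or array 4, so limma 3.58.1 (R 4.3.3, lmFit and eBayes) was fitted under both pairings over all 585 genes on 3 arrays, and the larger p was adjusted by Benjamini-Hochberg (threshold 0.05). The script was tested on simulated data. The alternatives were each pairing alone, separate replicates, centring, scaling, genes on at least 2 arrays, robust moderation, array 1 turned, and each array left out. In the fits, centring subtracted each array's median over the 585 genes on 3 arrays. The sign counts after centring used the medians over genes with at least 2 values instead. The 38 members and the other lists were chosen with earlier results of these data known, so no list was tested. Every member was described, and of the other lists up to 2 genes a side with the largest mean among those of 1 sign. Further genes there were named after their values were seen. Coordinates and sequences were not used.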

Additional observations from a re-analysis of the deposited data

How the results depend on the processing

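The count of members past the threshold was 0 under every alternative, and their lowest adjusted p over the 11 alternatives was 0.16 for the 8 members on all arrays. The count over all genes, 0 of 585, was 2 with arrays as separate replicates, 3 after scaling, 48 of 1899 with genes on at least 2 arrays, and 0 to 209 with 1 array left out. It was 17 without array 1 and 209 of 1863 without array 4, where both remaining arrays may come from 1 culture. The median of the members on all arrays (-0.35) was -0.32 with array 1 averaged with array 2, -0.33 with array 4, -0.28 after centring, -0.13 with all 29 members, -0.12 with array 1 turned, and -0.27 to -0.14 with 1 array left out. The -0.14 is without array 4 and covers the 29 members then measured; for the same 8 members, a setting added after seeing the data, it was -0.31. Members of 1 sign, 18 of 29, numbered 11 with array 1 turned and 5 to 18 with 1 array left out; 8 members had both values without array 1 or array 2. Of 88 single-member values, 8 changed side. SAR1 was 0.126 and 0.025 under the pairings with array 2 and array 4, 0.062 after centring, 0.405 with array 1 turned, and -0.253 to 0.304 with 1 array left out. ERV25 ranged from -0.163 to 0.00080 and RET3 from -0.224 to 0.0069 with 1 array left out, and ARF1 was 0.033 with array 1 turned. The cause was not tested. Each ratio already pairs the treated and untreated parts of 1 culture, and no further block was fitted.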

Other observations

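Of the other SNARE genes, 5 had a value on array 4, and 3 of them lay below -2, a point picked after the values were seen. Among all genes with a value on array 4, 5.94% lay at -2 or lower. SYN8, an endosomal SNARE gene, had 0.95, -2.59 and -2.47 on arrays 1, 2 and 4. Genes outside the secretory lists, such as FUN30 (1.56, -5.90 and -2.25), had this pattern too. GOS1, of the Golgi, had -2.83 and NYV1, of the vacuole, -2.46 on array 4, and neither had a value on array 1 or 2. YKT6 had -0.40 and SFT1 -0.03 on array 4. Of the 44 genes at -2 or lower on array 4, 23 had no value on the other arrays, 6 were also at -2 or lower on array 2, and 0 were on array 1. Why was not tested.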
